A study of Caenorhabditis elegans with 12 samples.

Results

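The nuclear-encoded respiratory chain genes were followed in whole early adult Caenorhabditis elegans that had spent different times arrested at the first larval stage (L1) before feeding. They were chosen by name, not by any measured value. Gene symbols were looked up for the sequence names of the deposited table in the WBcel235 annotation, and every gene of the nuo, cox, ucr, isp, cyc, atp, asb, asg, sdha, sdhb and sdhd families was taken, together with gas-1 and mev-1. The rule matched 45 annotated genes, of which 43 were among the 12894 genes listed. cox-16 and cyc-2.2 were not analysed here. The 43 genes comprised 7 complex I subunits, 5 complex II subunits, 7 complex III subunits, 1 cytochrome c, 7 complex IV subunits, 7 complex IV assembly factors and 9 ATP synthase subunits. All 43 passed the filter on low values, at least 1 CPM (a read count scaled by library size) in at least 3 libraries, and 38 averaged 50 CPM or more.

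Messenger RNA was sequenced in 12 libraries, 3 biological replicates (A, B and C) in each of 4 groups, all from the strain N2 (Bristol), the usual laboratory wild type. Embryos hatched without food in virgin S-basal and stayed there for 8 days (starved) or 1 day (control). Then 1000 live animals per condition fed at 20 °C on HT115 bacteria, carrying either a daf-2 RNAi construct or the empty vector (EV), on plates with carbenicillin and IPTG that all groups shared. Animals were collected when eggs appeared, after about 68 hours of feeding in the starved groups and about 52 hours in the control groups, so arrest length and feeding time cannot be told apart. The groups were starved daf-2 RNAi, starved EV, control daf-2 RNAi and control EV. The series' title states the question as extended L1 arrest with reduced insulin-like signalling.

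The respiratory chain moves electrons from NADH and succinate to oxygen. Complex I and complex II (succinate dehydrogenase) pass electrons to ubiquinone, complex III passes them on to cytochrome c, and complex IV (cytochrome c oxidase) to oxygen. Complexes I, III and IV pump protons, and ATP synthase lets them flow back to make ATP. Most subunits are encoded in the nucleus and a few in the mitochondrial genome, so an enzyme is built from both. In C. elegans, partial loss of isp-1, nuo-6 or cyc-1 function lengthens life, whereas mutants of mev-1 and gas-1 are short-lived and sensitive to oxidative stress. Several subunits exist as pairs of paralogs, and the ATP synthase subunit gene asb-1 is known for a role in the germline, while asb-2 serves the body more broadly. Genes on the X chromosome are known to be expressed at low levels in the worm's germline. daf-2 encodes the insulin-like receptor, whose reduced function lengthens life.

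The libraries held between 21150912 and 30037731 reads on the listed genes, and a respiratory chain gene was covered by 145 reads (cox-17, its lowest library) to 68693 reads (atp-2, its highest). The mRNA of daf-2 itself went against the RNAi label: it stood at 706, 289 and 111 CPM in starved daf-2 RNAi libraries A, B and C, against 193, 153 and 102 CPM in starved EV libraries. In control daf-2 RNAi libraries it stood at 317, 202 and 118 CPM, against 188, 155 and 91.6 CPM in control EV libraries. Every pair of libraries sharing a letter thus had more daf-2 mRNA under the daf-2 RNAi label, and directions given for daf-2 RNAi rest on the label. Whether reads from the RNAi construct are counted in these daf-2 values was not tested. Libraries sharing a letter deviated together between RNAi labels within an arrest length (correlations of 0.541 to 0.821), and for those comparisons the values of a fit with the letter as a replicate block are given as well. That block is 1 effect of each letter shared by both arrest lengths, across which the deviations correlated less evenly (-0.0952 to 0.659). A fit with separate letter effects within each arrest length, added after the values were seen, is therefore set beside it and called the block within arrest lengths. The summed markers of germline, muscle, intestine, hypodermis, pharynx and neurons were above 0 in all libraries, as in a whole animal, although a few hypodermis and pharynx markers were at 0 in some. In such bulk samples, fewer cells of a type and less RNA per cell cannot be told apart.

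Within the chain, mRNA levels per kilobase of exon differed between complexes. In control EV animals the highest were atp-2, the catalytic beta subunit of ATP synthase, at 1108 CPM per kb, and cyc-2.1, the electron carrier cytochrome c, at 1078 CPM per kb. The median level was 453 CPM per kb over the 9 ATP synthase genes and 451 CPM per kb over the 7 complex IV subunits. It was 233 CPM per kb in complex III, 195 CPM per kb in complex I and 150 CPM per kb in complex II. Assembly factors of complex IV had the lowest median, 45.4 CPM per kb. Among them cox-10, which makes an intermediate of the heme of complex IV, was lowest at 12.1 CPM per kb, and cox-14, which shares most of its exon bases with the gene Y70G10A.4, highest at 119.6 CPM per kb.

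Added together, the 43 genes gave 10760 ± 19.7 CPM in starved daf-2 RNAi, 11156 ± 601 CPM in starved EV, 11533 ± 440 CPM in control daf-2 RNAi and 13343 ± 585 CPM in control EV libraries (mean ± SD, n = 3 each). The 3 control EV libraries, at 12865 to 13996 CPM, lay above all 9 others, which ran from 10495 to 11908 CPM. As a share of all reads on listed genes the 4 groups held 1.12%, 1.15%, 1.15% and 1.26% in that order. atp-1 and atp-2, the alpha and beta subunits of ATP synthase, had the most CPM of the 43 genes in each group.

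Replicates differed in a way that followed transcript length. Subtracting the log2 level in library C from that in library A within each group gave differences that increased with exon length over the 43 genes. Spearman's rho was 0.634 in starved daf-2 RNAi, 0.654 in starved EV, 0.616 in control daf-2 RNAi and 0.624 in control EV. Over the 12668 tested genes with an exon length it was 0.535, 0.578, 0.477 and 0.565 in the same order, and these points share their libraries and no p is given. atp-1, the long alpha subunit gene of ATP synthase, had 1902, 1307 and 816 CPM in starved EV libraries A, B and C. cox-17, a short gene for a copper carrier of complex IV, ran the other way at 6.58, 9.85 and 10.4 CPM in the same libraries. This spread enters the SE of every long or short gene below, and its part in the results was not tested.

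**Figure D1:**
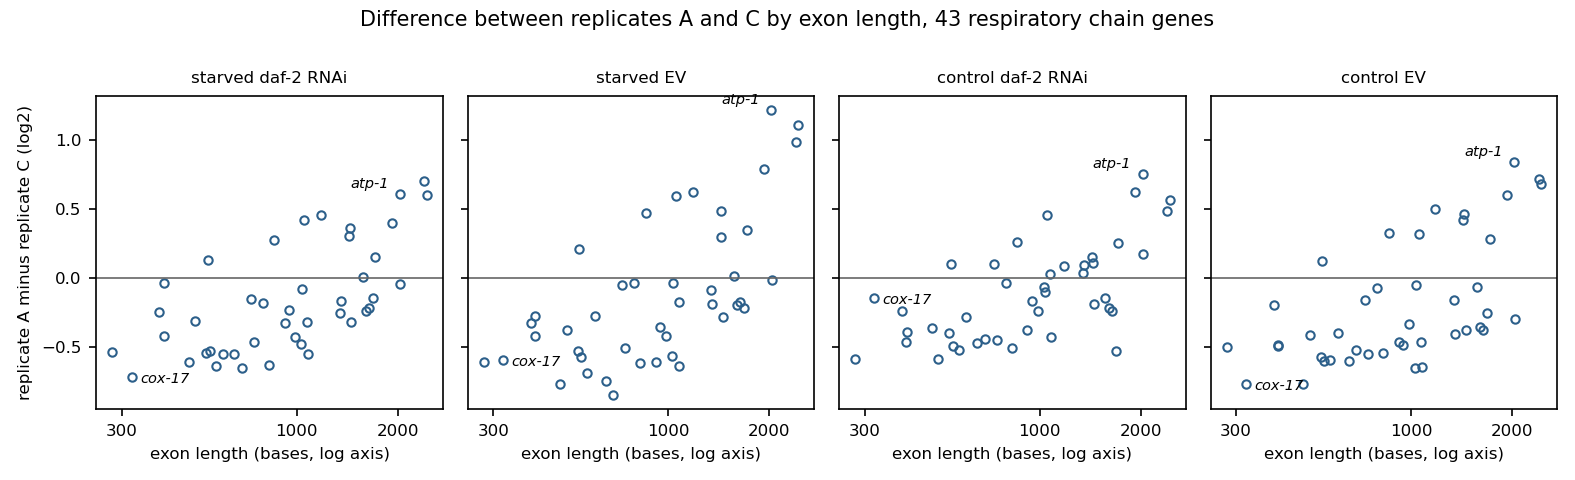
Library A minus library C (log2 scale) against exon length (bases, log axis) for the 43 respiratory chain genes in each group. Each circle is a gene, with the long atp-1 above 0 and the short cox-17 below 0 in all 4 groups.

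After long arrest on empty vector, transcripts of the chain were mostly slightly lower, and by about as much as other abundant mRNAs. In starved EV against control EV animals, 40 of 43 genes had a change below 0, with a median of -0.25 on the log2 scale, and 2 of 43 fell. The median was 0.03 over all 12830 genes tested, but -0.26 over the 4180 genes averaging 50 CPM or more. Changes below 0 made up 48.1% of all genes tested and 80.5% of those 4180. Across all genes tested, 6.12% were called lower and 11.5% higher by limma (adjusted p under 0.05). In that fit, 2 lower calls and 0 higher calls among 43 genes were no larger a share than the background. At an unadjusted p under 0.05, 8 of the 43 were lower and 0 higher, beside 16.6% and 20.9% of all genes. edgeR called 1 of the 43 lower, beside 5.62% of all genes. DESeq2 called 8 lower, a larger share than the 11.7% of all genes. Both called 0 higher, beside 10.9% and 13.5%. With the letter as a replicate block 30 of the 43 were called lower and 0 higher, beside 26.3% and 23.3% of all genes. Of the 4180 genes averaging 50 CPM or more, 2349 were called lower and 365 higher in that fit. Letters were not taken to pair libraries across arrest lengths. After quantile normalization, which gives all libraries the same distribution, the median of the chain was -0.06 and that of all genes -0.07, a shift of -0.10 for all genes.

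The genes that fell were in complex III and ATP synthase. ucr-2.3 (T24C4.1; chromosome III, 879860 to 881458 in WBcel235), a core protein of complex III, had 139, 176 and 158 CPM in starved EV libraries A, B and C, against 179, 227 and 238 CPM in control EV libraries. Every starved EV value lay below every control EV value, and the change was -0.44 ± 0.13 (log2, SE; limma, adjusted p = 0.0407). atp-4 (T05H4.12; chromosome V, 6426246 to 6427112), a coupling factor of ATP synthase, had 194, 185 and 168 CPM in starved EV libraries, against 237, 236 and 217 CPM in control EV libraries. Its groups did not overlap either, and the change was -0.34 ± 0.10 (limma, adjusted p = 0.0424). Neither call was firm. Removing any 1 of 7 libraries ended the call of ucr-2.3: replicate A of starved daf-2 RNAi, A and C of starved EV, B and C of control daf-2 RNAi, and B and C of control EV (adjusted p of 0.0506 to 0.14, limma). No gene of the chain was called lower without any of these 7. The call of atp-4 ended with any 1 library removed other than replicate C of starved daf-2 RNAi and A of control daf-2 RNAi (adjusted p of 0.0507 to 0.133, limma). The count of lower calls was 1 without replicate B of starved daf-2 RNAi and 6 without replicate A of control EV. With quantile normalization the change of ucr-2.3 was -0.25 (adjusted p = 0.265, limma) and that of atp-4 -0.15 (adjusted p = 0.238, limma).

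By complex, the median changes in starved EV against control EV were -0.25 in complex I, -0.16 in complex II, -0.23 in complex III, -0.23 in complex IV, -0.38 in its assembly factors and -0.31 in ATP synthase. The lowest value was that of cox-17 at -0.63 ± 0.26, which did not pass the test (limma, adjusted p = 0.0988). sdha-2, a flavoprotein subunit of complex II, had 167, 198 and 169 CPM in starved EV libraries, against 203, 231 and 250.1 CPM in control EV libraries, with no overlap and a change of -0.35 ± 0.12 (adjusted p = 0.0545, limma). mev-1, the cytochrome b subunit of complex II, lay nearest 0 among the autosomal genes at -0.11 ± 0.10, with a mean of 109.6 ± 2.70 CPM in starved EV and 119 ± 8.00 CPM in control EV (SD, n = 3). isp-1, the Rieske iron-sulfur protein of complex III, had 262, 312 and 351 CPM in starved EV libraries, against 314, 400.3 and 396 CPM in control EV libraries. Its ranges overlapped through starved EV library C and control EV library A. nuo-6, a complex I subunit, had 104, 146 and 175 CPM in starved EV libraries, against 128, 192 and 195 CPM in control EV libraries. These overlapped as well, with library A lowest and library C highest in both groups.

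All 37 autosomal genes of the chain had a change below 0 after long arrest on EV, whereas the 6 genes on the X chromosome lay around 0. The split by chromosome was chosen after the values were seen. The X-linked genes are gas-1, sdha-1, ucr-2.1, ucr-2.2, asb-2 and asg-2, and their changes ran from -0.08 (asg-2) to 0.08 (ucr-2.1), with a median of -0.01, against a median of -0.28 over the autosomal ones. The same difference was present in the genome at large, with a median of 0.29 over all 1805 X-linked genes tested and -0.05 over all 10854 autosomal genes. Transcripts of 20 germline markers, all detected, summed to 4984 to 7142 CPM in starved EV libraries, against 7322 to 9184 CPM in control EV libraries, and 5 of the 20 fell. Markers of 4 body tissues leaned the other way. Of the hypodermis and cuticle markers 6 of 11 rose (median 1.19), of the pharynx markers 4 of 9 (median 0.99), of the neuronal markers 3 of 11 (median 0.50) and of the intestinal markers 2 of 12 (median 0.27), while none of 14 body wall muscle markers was called (median -0.02). The part of any of these in the chromosome split was not tested.

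**Figure D2:**
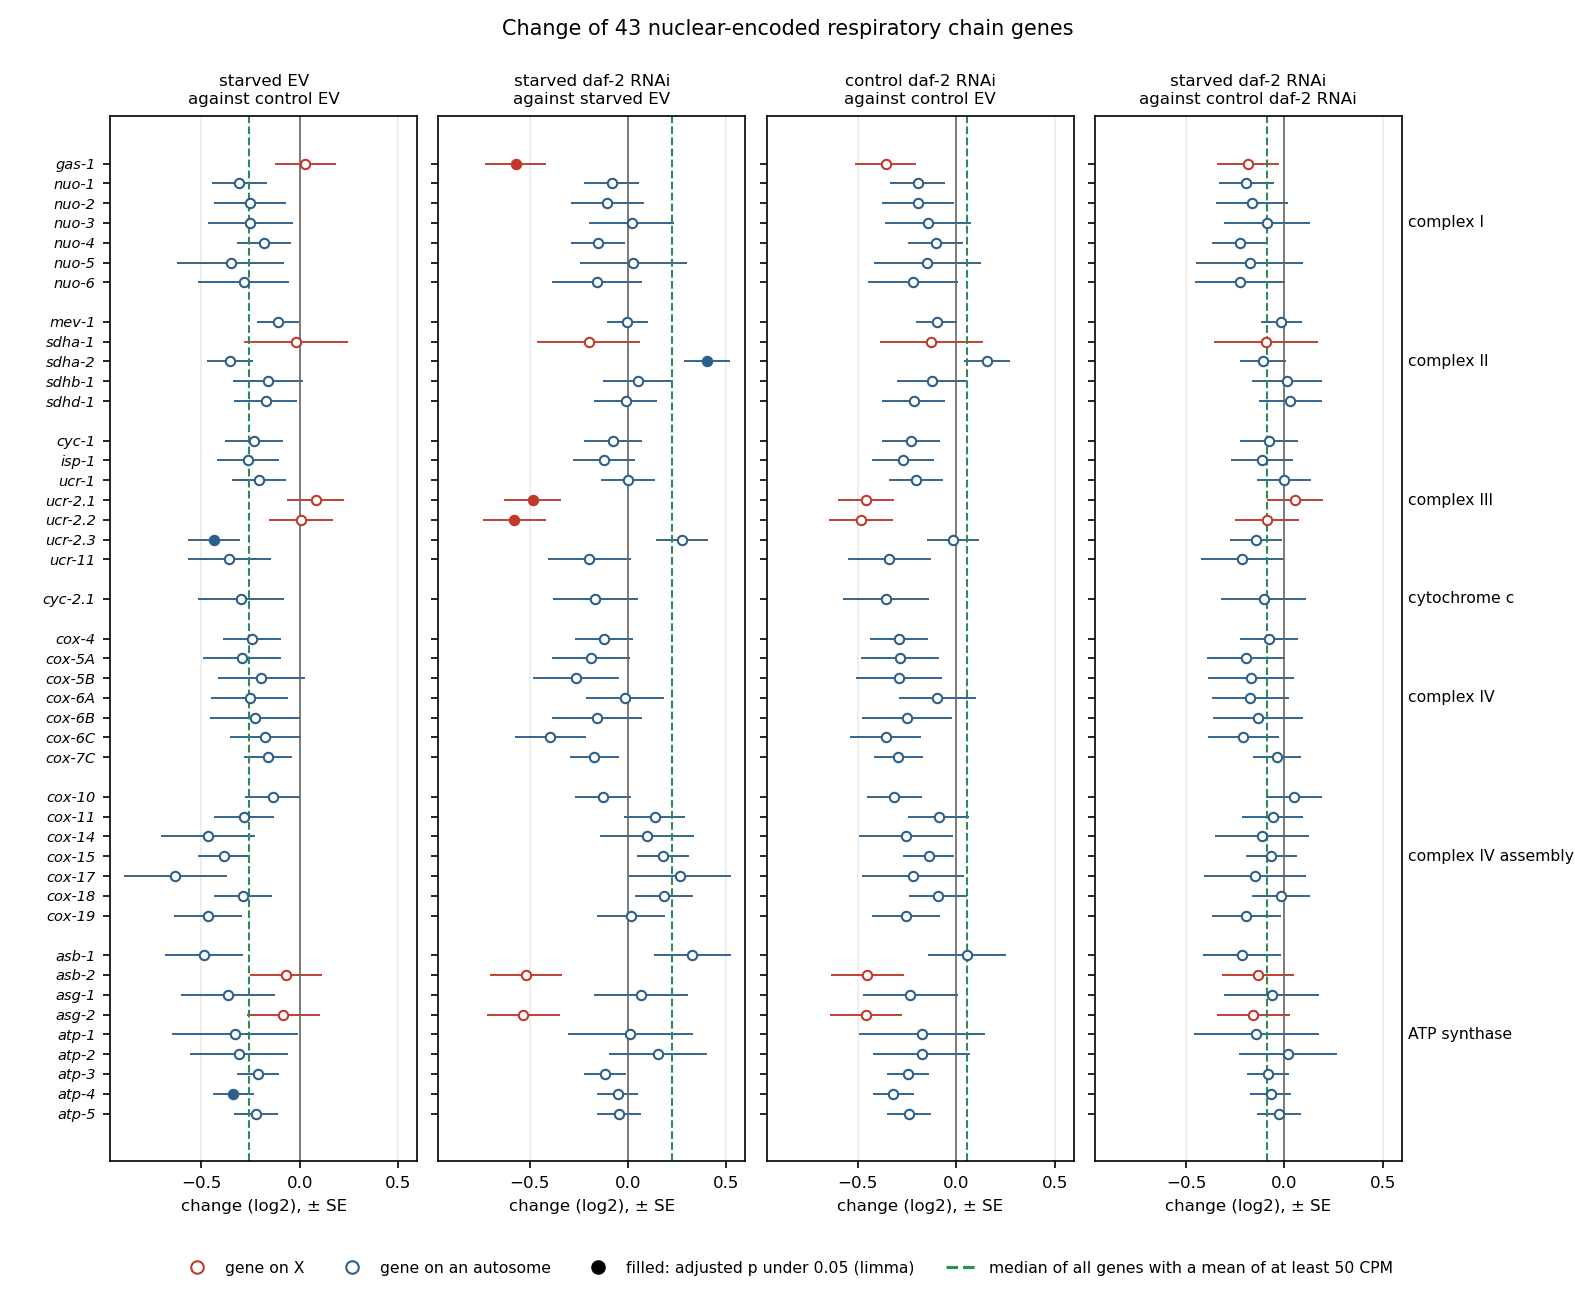
Change (log2, ± SE) of each of the 43 genes in 4 comparisons, ordered by complex, with genes on X in red and on autosomes in blue, and filled points for an adjusted p under 0.05 (limma). The dashed line is the median of all 4180 genes averaging 50 CPM or more, at -0.26, 0.22, 0.05 and -0.09 in the panels from left to right. In both panels that set daf-2 RNAi against EV, 5 of the 6 X-linked genes (all but sdha-1) lie among the lowest values.

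The daf-2 RNAi label after long arrest went with a split among subunits of the same enzymes. In starved daf-2 RNAi against starved EV animals, gas-1, ucr-2.1 and ucr-2.2 fell and sdha-2 rose. The median over the 43 genes was -0.08, against 0.00 over all genes tested and 0.22 over genes averaging 50 CPM or more. It was -0.02 without replicate A of starved daf-2 RNAi, and -0.15, -0.05 and -0.05 without replicate A, B or C of starved EV. After quantile normalization it was -0.19, against 0.05 over all genes, and by DESeq2 it was -0.04. By limma 11.9% of all genes were called lower and 3.8% higher, beside 3 and 1 of the 43. At an unadjusted p under 0.05, 6 of the 43 were lower and 1 higher, beside 22.0% and 14.2% of all genes. edgeR called 3 lower and 1 higher, beside 9.6% and 3.12%, and DESeq2 4 lower and 1 higher, beside 13.1% and 8.78%. With the letter as a replicate block, 9 genes were called lower and 3 higher, against 24.3% lower and 23.7% higher over all genes. The block within arrest lengths called those 12 genes and, in addition, ucr-11 lower, against 29.6% lower and 28.0% higher over all genes. Neither direction was called more often in the chain than in all genes. Of the 4180 genes averaging 50 CPM or more, 198 were called lower and 270 higher by limma. With the shared block these were 540 and 2099, and within arrest lengths 602 and 2337. Beside those abundant genes, lower calls were a larger share of the chain and higher calls a smaller one in each of these 3 fits.

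gas-1 (K09A9.5; chromosome X, 15586786 to 15590397), the core complex I subunit near the site of ubiquinone reduction, had 108, 101 and 119.6 CPM in starved daf-2 RNAi libraries A, B and C, against 153, 159 and 178 CPM in starved EV libraries. All 3 libraries labelled daf-2 RNAi lay below all 3 EV libraries. The change was -0.57 ± 0.16 (log2, SE; limma, adjusted p = 0.0303). ucr-2.2 (T10B10.2; chromosome X, 15173904 to 15178145), a complex III core protein, had 63.1, 48.5 and 49.0 CPM in starved daf-2 RNAi libraries, against 97.4, 75.4 and 69.1 CPM in starved EV libraries. ucr-2.1 (VW06B3R.1; chromosome X, 12018429 to 12021206), another paralog of that core protein, had 111, 86.2 and 90.0 CPM in starved daf-2 RNAi libraries, against 151, 129 and 123 CPM in starved EV libraries. Neither gene overlapped between the groups, and the changes were -0.58 ± 0.16 for ucr-2.2 (adjusted p = 0.033) and -0.48 ± 0.14 for ucr-2.1 (adjusted p = 0.0401, limma). sdha-2 (C34B2.7; chromosome I, 10683270 to 10685587) had 227, 243 and 234 CPM in starved daf-2 RNAi libraries, against 167, 198 and 169 CPM in starved EV libraries, a change of 0.40 ± 0.12 (limma, adjusted p = 0.0395). Every library labelled daf-2 RNAi lay above every EV library for this gene.

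These 4 calls held with the shared replicate block (adjusted p of 0.000754 to 0.00484, limma) and within arrest lengths (0.00015 to 0.00308). With the shared block so did all 2017 genes called without a block in this comparison, so this is not particular to the chain. In the fit without a block the 4 calls moved with single libraries. For gas-1, removing replicate A or B of starved daf-2 RNAi, or A or C of starved EV, ended the call (adjusted p of 0.0593 to 0.106, limma). Its change in those fits ran from -0.62 to -0.51. For ucr-2.2 the libraries whose removal ended the call were replicates B and C of starved daf-2 RNAi and A of starved EV (adjusted p of 0.0698 to 0.112, limma). For ucr-2.1 they were replicates B and C of starved daf-2 RNAi, all 3 of starved EV, B and C of control daf-2 RNAi, and B of control EV (adjusted p of 0.0541 to 0.138, limma). For sdha-2 they were all 3 of starved daf-2 RNAi, A and C of starved EV, B and C of control daf-2 RNAi, and B of control EV (adjusted p of 0.0571 to 0.117, limma), and no gene was called higher without any of these 8. Where a control library was removed, the changes of ucr-2.1 and sdha-2 stayed at -0.48 and 0.40. The count of lower calls was 0 without replicate B of starved daf-2 RNAi or A of starved EV, and 1 without replicate C of either group. With array weights ucr-2.1, ucr-2.2 and sdha-2 all lost their calls (adjusted p of 0.0631 to 0.0821, limma), as they did with only the groups compared (0.0841 to 0.115), and sdha-2 lost its call with quantile normalization (0.119).

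The split ran between paralogs. Paralogs were compared per kilobase of exon, each with an autosomal gene over its X-linked partner. The ratio of asb-1 to asb-2, alternative b subunits of the ATP synthase stalk, was 1.54, 2.61 and 2.96 in starved daf-2 RNAi libraries A, B and C, against 0.769, 1.5 and 1.76 in starved EV libraries. It was 2.3, 2.37 and 2.56 in control daf-2 RNAi libraries, against 1.09, 1.82 and 2.44 in control EV libraries. In every pair of libraries with the same letter the ratio was higher under the daf-2 RNAi label, at both arrest lengths. The groups overlapped at both arrest lengths, with library A lowest in each group.

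Behind that ratio, asb-1 (F35G12.10; chromosome III, 4594543 to 4595821) had 269, 331 and 375 CPM in starved daf-2 RNAi libraries, against 198, 289.9 and 294 CPM in starved EV libraries. asb-2 (F02E8.1; chromosome X, 4469766 to 4471476) had 202, 146 and 146 CPM in starved daf-2 RNAi libraries, against 296, 223 and 192 CPM in starved EV libraries. In each pair sharing a letter asb-1 was higher and asb-2 lower in the daf-2 RNAi library, while the groups overlapped for both. Without the block neither passed the test (0.33 ± 0.20, adjusted p = 0.233, and -0.52 ± 0.18, adjusted p = 0.07, limma), whereas with the replicate block both did (adjusted p = 0.0213 for asb-1 and 0.0024 for asb-2).

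The complex III core proteins had the same arrangement. ucr-2.3 over ucr-2.2 was 2.98, 4.29 and 4.31 in starved daf-2 RNAi libraries, against 1.52, 2.49 and 2.43 in starved EV libraries, with no overlap. ucr-2.3 over ucr-2.1 was 1.68, 2.40 and 2.34 in starved daf-2 RNAi libraries, against 0.974, 1.45 and 1.36 in starved EV libraries, again with no overlap. In control animals ucr-2.3 over ucr-2.2 averaged 3.96 ± 0.0908 in daf-2 RNAi and 2.94 ± 0.876 in EV libraries (SD, n = 3 each). ucr-2.3 itself averaged 210.3 ± 7.0 CPM in control daf-2 RNAi and 214 ± 31.4 CPM in control EV libraries.

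For complex II, sdha-2 over sdha-1 was 2.23, 3.47 and 3.77 in starved daf-2 RNAi libraries, against 1.32, 2.34 and 2.67 in starved EV libraries, higher in all 3 letter pairs. sdha-1 alone did not pass the test at -0.20 ± 0.26 (adjusted p = 0.573, limma, and 0.0929 with the replicate block). For the g subunits of ATP synthase, asg-1 over asg-2 was 2.51, 3.22 and 3.07 in starved daf-2 RNAi libraries, against 1.56, 2.19 and 2.06 in starved EV libraries, with no overlap. asg-2 (C53B7.4; chromosome X, 6841258 to 6842121) had 55.9, 58.9 and 69.8 CPM in starved daf-2 RNAi libraries, against 78.5, 88.0 and 102 CPM in starved EV libraries. Its groups did not overlap, and it was called with the replicate block (adjusted p = 0.0019) but not without it (-0.53 ± 0.18, adjusted p = 0.066, limma). In control animals both of these ratios were higher under the daf-2 RNAi label in pairs A and B and lower in pair C. How reads that match more than 1 paralog were counted is not given in the sources used here.

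**Figure D3:**
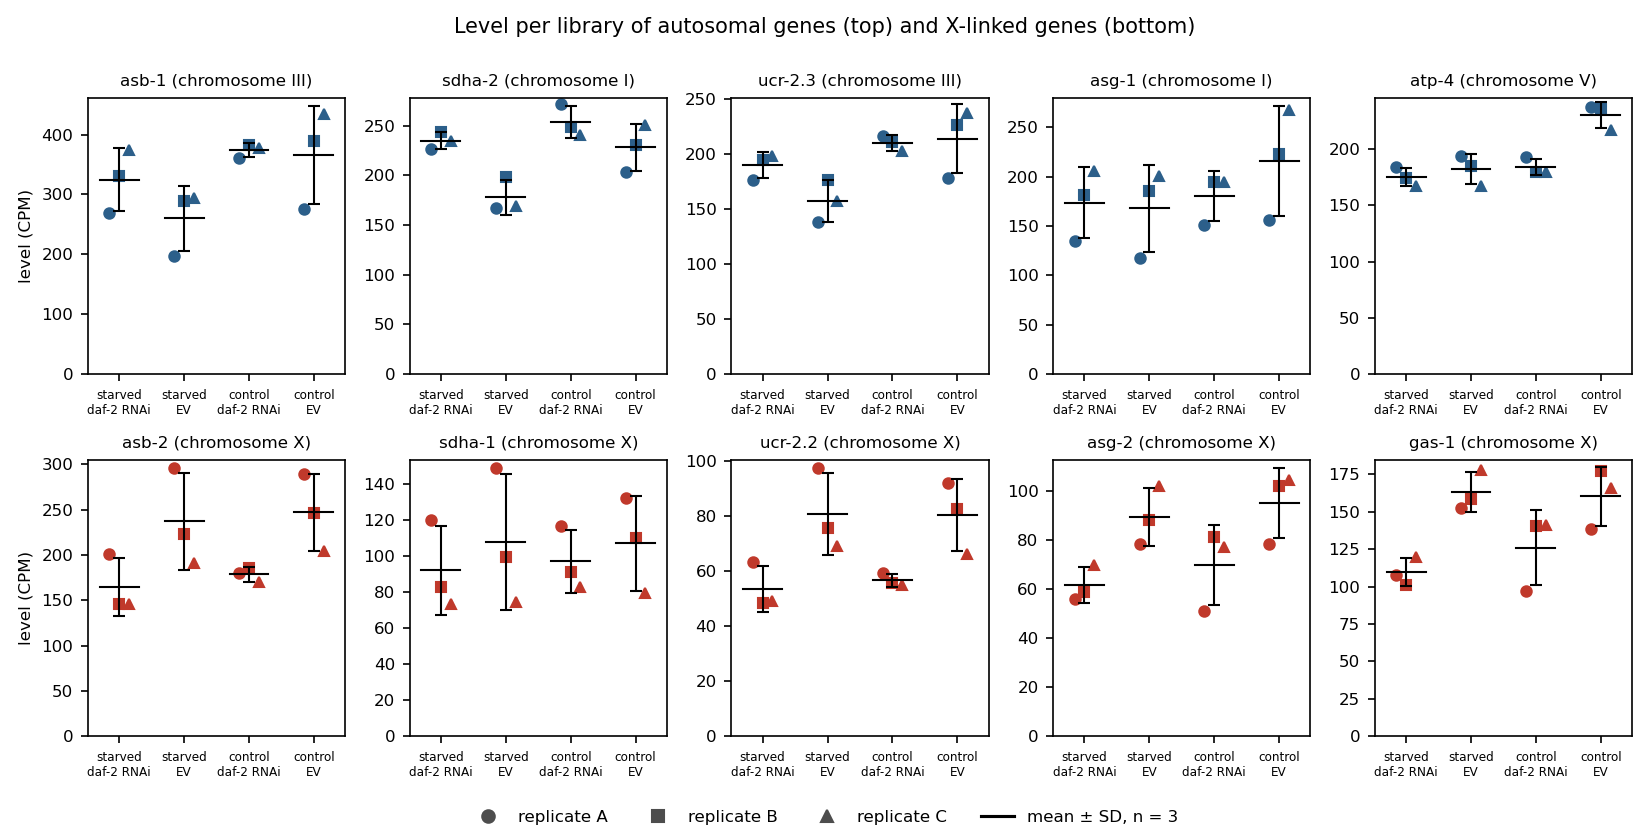
Level (CPM) per library of 5 autosomal genes (top, blue) and 5 X-linked genes (bottom, red) in the 4 groups, the libraries being named by their RNAi label; bars are means ± SD of 3 replicates. gas-1 lies at 101 to 119.6 CPM in the starved daf-2 RNAi group and at 153 to 178 CPM in the starved EV group, whereas sdha-2 lies at 227 to 243 CPM and at 167 to 198 CPM in the same groups.

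Across the chain after long arrest, 22 of 43 genes were lower in all 3 letter pairs under the daf-2 RNAi label, beside 39.2% of all genes tested, and 8 were higher in all 3, beside 37.0%. Of the 4180 genes averaging 50 CPM or more, 764 were lower in all 3 pairs and 2806 higher in all 3. All 6 X-linked genes were among the 22, with a median change of -0.53, whereas the 37 autosomal genes had a median of -0.02. Over the genome the medians were -0.34 on X and 0.07 on the autosomes. Among autosomal genes the complex IV subunits leaned lower. With the replicate block cox-6C (-0.39), cox-5B (-0.26), cox-5A (-0.19) and cox-7C (-0.17) were called lower in starved daf-2 RNAi against starved EV (adjusted p of 0.0027, 0.0154, 0.0387 and 0.0396, limma), and without it none of them was. The assembly factors of complex IV had a median of 0.14, with 6 of 7 above 0 and no call in any of these fits.

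Germline markers were higher as well. They summed to 8348 to 10000 CPM in starved daf-2 RNAi libraries, against 4984 to 7142 CPM in starved EV libraries, and 9 of 20 rose, with a median change of 0.57, while all 20 were called higher with the replicate block. Body wall muscle markers summed to 2585 to 6442 CPM in starved daf-2 RNAi libraries, against 3579 to 10600 CPM in starved EV libraries. All 14 of these were below 0, with a median of -0.57 and no call, though 11 were called lower with the shared block and all 14 with the block within arrest lengths. Of 12 intestinal markers 5 fell and 1 rose, with a median of -0.78, and 4 of 9 pharynx and 4 of 11 hypodermis and cuticle markers fell. With the shared block 10 intestinal, 9 hypodermis and cuticle and 4 pharynx markers were called lower. Their part in the paralog values was not tested.

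After short arrest, most of the chain lay lower under the daf-2 RNAi label, although no single gene was called by limma without a block or array weights. In control daf-2 RNAi against control EV animals, 41 of 43 genes had a change below 0, with a median of -0.23, while the median was -0.01 over all genes tested and 0.05 over those averaging 50 CPM or more. Changes below 0 made up 52.7% of all genes tested and 36.8% of those averaging 50 CPM or more. Quantile normalization left the median at -0.22. By limma 0 of 43 genes were called, beside 0.725% of all genes lower and 0.663% higher. At an unadjusted p under 0.05 there were 9 lower and 0 higher, beside 6.49% and 2.81% of all genes. edgeR and DESeq2 on whole reads called none of the 43, beside 0.772% and 1.78% of all genes lower and 0.756% and 1.21% higher. Limma with array weights called 11 lower. The share over all genes in that fit is not given here, so the 11 cannot be set against the background. Of the 43, 34 were lower in all 3 letter pairs and 0 higher in all 3, beside 25.4% and 20.0% of all genes tested.

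With the letter as a replicate block, 13 genes were called lower and 0 higher, beside 4.02% and 1.78% of all genes tested. They were isp-1, ucr-2.1, ucr-2.2 and ucr-11 of complex III, cyc-2.1, the complex IV subunits cox-4, cox-5A, cox-5B, cox-6C and cox-7C, and asb-2, asg-2 and atp-4 of ATP synthase. Of the 43, no complex I or complex II gene was called in that fit, but 4 of 18 further complex I subunits (ndua to nduv) and 1 of 10 other complex I genes were called lower. The block within arrest lengths called the same 13 and 7 more (gas-1 of complex I, cyc-1, cox-6B, cox-10, cox-14, atp-3 and atp-5), beside 8.25% lower and 3.47% higher over all genes. ucr-2.2 had 59.4, 55.4 and 54.9 CPM in control daf-2 RNAi libraries A, B and C, against 91.8, 82.6 and 66.1 CPM in control EV libraries, a change of -0.48 ± 0.09 with the block (adjusted p = 0.0082, limma). ucr-2.1 had 97.7, 90.3 and 87.8 CPM in control daf-2 RNAi libraries, against 142, 134 and 106 CPM in control EV libraries, a change of -0.46 ± 0.08 (adjusted p = 0.0071, limma). Both genes lay below all control EV libraries in every control daf-2 RNAi library.

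atp-4 had 193, 180 and 179.6 CPM in control daf-2 RNAi libraries, against 237, 236 and 217 CPM in control EV libraries, and the groups did not overlap. Its change was -0.32 ± 0.06 with the block (adjusted p = 0.0104) and its adjusted p without it was 0.243 (limma). asb-2 had 181, 186 and 169.9 CPM in control daf-2 RNAi libraries, against 289.5, 247 and 205 CPM in control EV libraries, a change of -0.45 ± 0.10 (adjusted p = 0.0214 with the block, limma). Its partner asb-1 had 361, 383 and 378 CPM in control daf-2 RNAi libraries, against 275, 390 and 434 CPM in control EV libraries. The control daf-2 RNAi values of asb-1 lay inside the wide range of control EV.

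cyc-2.1 (E04A4.7; chromosome IV, 4747895 to 4749012) had 360.1, 512 and 508 CPM in control daf-2 RNAi libraries, against 449.7, 644 and 682 CPM in control EV libraries. The groups overlapped but each letter pair was lower, with a change of -0.36 ± 0.08 (adjusted p = 0.0199 with the block, limma). isp-1 had 274, 320.2 and 324 CPM in control daf-2 RNAi libraries, against 314, 400.3 and 396 CPM in control EV libraries, with an adjusted p of 0.0497 with the shared block, the nearest to the threshold of the 13. gas-1 had 97.2, 140.3 and 141 CPM in control daf-2 RNAi libraries, against 139, 177 and 166 CPM in control EV libraries, lower in each letter pair but overlapping (adjusted p = 0.482 without and 0.065 with the shared block, and 0.00765 with the block within arrest lengths, limma). By complex the medians were -0.19 in complex I, -0.12 in complex II, -0.27 in complex III, -0.29 in complex IV, -0.22 in its assembly factors and -0.24 in ATP synthase. The 6 X-linked genes had a median of -0.45 and the 37 autosomal genes one of -0.22, beside -0.07 and -0.01 over all X-linked and all autosomal genes. Germline markers summed to 8423 to 10440 CPM in control daf-2 RNAi libraries, against 7322 to 9184 CPM in control EV libraries, with a median of 0.16, no call without the block and 1 of 20 called higher with it. All 14 body wall muscle markers were below 0 (median -0.38), with no call without the block or with the shared one and 8 called lower within arrest lengths. Of 12 intestinal markers 2 fell and 1 rose (median -0.36), and the 9 pharynx markers had a median of -0.54, with 2 called lower with the shared block. The 11 hypodermis and cuticle markers had a median of -0.07 and the 11 neuronal markers one of -0.20. None of either was called without the block or with the shared one, while 4 and 1 were called lower within arrest lengths. Their part in the values of the chain was not tested.

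Under the daf-2 RNAi label, arrest length left no called difference in the chain. In starved daf-2 RNAi against control daf-2 RNAi animals 0 of 43 genes were called by limma, beside 0.663% of all genes higher and 0.039% lower. None had an unadjusted p under 0.05, beside 7.69% of all genes higher and 2.42% lower. edgeR and DESeq2 also called none of the 43, beside 0.842% and 2.48% of all genes higher and 0.0701% and 0.421% lower. The changes ran from -0.23 (nuo-4, a complex I subunit) to 0.05 (ucr-2.1), with a median of -0.11 against -0.09 over genes averaging 50 CPM or more. atp-2 had 2172, 1884 and 1643 CPM in starved daf-2 RNAi libraries, against 2372, 1778 and 1536 CPM in control daf-2 RNAi libraries, and the starved range lay inside the control range. mev-1 averaged 109.5 ± 9.46 CPM in starved daf-2 RNAi and 111 ± 4.75 CPM in control daf-2 RNAi libraries (SD, n = 3 each).

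Whether the difference between RNAi labels itself depended on arrest length was tested as an interaction, and no gene of the 12830 tested passed (0.0% higher and 0.0% lower, limma). At an unadjusted p under 0.05 there were 169 higher (1.32%) and 743 lower (5.79%) over all genes. With the replicate block 6 higher and 57 lower were called, and with the block within arrest lengths 224 higher (1.75%) and 546 lower (4.26%), none of them among the 43 in either block fit. Among the 43 genes none had an unadjusted p under 0.05, and edgeR and DESeq2 called none, beside 0.0% of all genes by edgeR in both directions and 0.0312% lower by DESeq2. The interaction values ran from -0.21 (gas-1) to 0.48 (cox-17), with a median of 0.16, equal to that of genes averaging 50 CPM or more. They lay below 0 for all 6 X-linked genes (median -0.07) and for 2 of 37 autosomal genes (median 0.17). Over the genome 81.8% of X-linked genes lay below 0 (median -0.23), and 42.7% of autosomal genes (median 0.07), so this split is not particular to the chain. So no gene of the chain was shown to respond to the RNAi label differently after long and after short arrest. The comparisons share groups: starved EV and control EV each serve as the baseline of 1 RNAi comparison and enter the arrest comparison, so the values of these comparisons are not independent.

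Protein-coding genes of the mitochondrial genome supply other subunits of the same complexes. In all, 9 mitochondrial genes were listed and tested, of which the annotation gives 8 as protein-coding and 1 as a ribosomal RNA, a list chosen after the values were seen and named by matching positions to RefSeq. None was called by limma in any comparison. In starved daf-2 RNAi against starved EV all 9 were lower in every letter pair, with a median of -0.52, and 8 were called lower with the shared block and all 9 with the block within arrest lengths. ND6, a complex I subunit, averaged 120.4 ± 12.8 CPM in starved daf-2 RNAi and 217 ± 73.4 CPM in starved EV (SD, n = 3 each), a change of -0.80 ± 0.26 (SE; adjusted p = 0.0555, and 0.0038 with the block, limma). COX3, a core complex IV subunit, averaged 1668 ± 655 CPM in starved daf-2 RNAi and 2545 ± 878 CPM in starved EV, a change of -0.62 ± 0.32 (adjusted p = 0.178, and 0.0083 with the block, limma). In control daf-2 RNAi against control EV the 9 genes had a median of -0.35 and ND6 alone was called with the shared block (adjusted p = 0.0497, limma), against 7 of the 9 within arrest lengths. In starved EV against control EV the median was 0.11, all 9 lying above 0 where 40 of 43 nuclear genes lay below. These 9 values ran from 0.01 to 0.37, with SE of 0.26 to 0.35. None of the 9 was called with the shared block there. By letter, none of the 9 was higher in all 3 pairs, while 37 of the 43 nuclear genes were lower in all 3. Letters were not taken to pair libraries in this comparison.

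Other genes of the chain and of mitochondria were described from lists. Among 18 further complex I subunits named ndua to nduv, a list added after the values were seen, none was called in starved EV against control EV, all 18 were below 0 and the median was -0.29. In control daf-2 RNAi against control EV all 18 were again below 0, with a median of -0.23, and 0 were called without the block, 4 with the shared block and 11 with the block within arrest lengths. Of 7 other complex IV and ATP synthase factors, 2 fell in starved EV against control EV. These were cchl-1, which attaches heme to cytochrome c, at 136 ± 20.2 CPM in starved EV and 191 ± 14.3 CPM in control EV (-0.50 ± 0.13, adjusted p = 0.0239, limma), and sco-1, a copper chaperone of complex IV, at 52.7 ± 2.24 CPM in starved EV and 68.6 ± 6.81 CPM in control EV (-0.37 ± 0.11, adjusted p = 0.0387, limma). Of 8 ubiquinone synthesis genes, coq-5 fell (-0.43 ± 0.12, adjusted p = 0.0324, limma), and of 16 citric acid cycle genes none was called. Of 17 mitochondrial stress response and import genes hsp-60, a mitochondrial chaperone, fell to 407 ± 63.6 CPM in starved EV, against 602 ± 68.7 CPM in control EV (adjusted p = 0.032, limma).

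The mitochondrial ribosome translates the mitochondrially encoded subunits. Of its 67 genes 22 fell and none rose in starved EV against control EV, with a median of -0.44, and after quantile normalization the median was -0.40, where that of the chain was -0.06. mrps-22 had 67.2 ± 4.22 CPM in starved EV and 105 ± 16.9 CPM in control EV (SD, n = 3 each), a change of -0.62 ± 0.13 (adjusted p = 0.0102, limma). Cytosolic ribosomal proteins, with 18 of 76 fallen, had a median of -0.46, and -0.19 after quantile normalization. In control daf-2 RNAi against control EV the 67 mitochondrial ribosome genes had a median of -0.11, with no call without the block and 3 lower with it. The 76 cytosolic ones had a median of -0.36, with only rpl-11.2 and rpl-25.1 called lower without the block but 42 with the shared block and 52 within arrest lengths. In starved daf-2 RNAi against starved EV, 1 of the 67 mitochondrial ribosome genes rose, mrpl-34 (0.39 ± 0.11, adjusted p = 0.0401, limma). Of 16 citric acid cycle genes 1 fell, sucl-1, a subunit of succinyl-CoA ligase (-0.51 ± 0.14, adjusted p = 0.0308, limma). Of the 76 cytosolic ribosomal proteins 2 fell, rpl-11.2 (-0.78 ± 0.16, adjusted p = 0.00829) and rpl-25.1 (-0.71 ± 0.15, adjusted p = 0.0117, limma). Beside these, 3.8% of all genes rose and 11.9% fell.

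**Figure D4:**
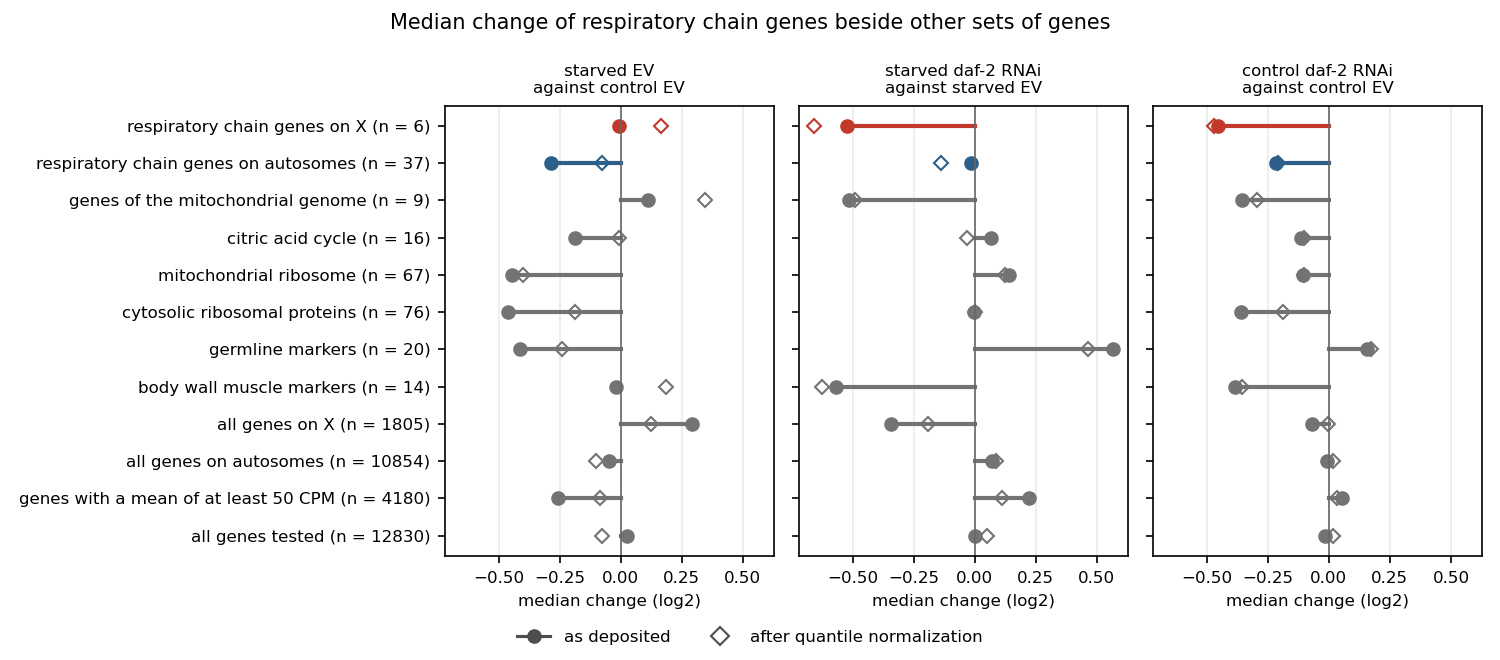
Median change (log2) of the respiratory chain genes, split by chromosome, beside other gene sets in 3 comparisons, as deposited (circles) and after quantile normalization (diamonds), with n the number of genes. Chain genes on X lie at -0.01, -0.53 and -0.45 and those on autosomes at -0.28, -0.02 and -0.22 in the panels from left to right.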

How the data were processed

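Messenger RNA was sequenced from 12 libraries made from 500 ng of RNA with 12 cycles of PCR, using the NEBNext Ultra RNA kit, per the labels' protocols, which do not say whether strand was kept. Bowtie 1.1.2, HTSeq 0.12.4 and edgeR appear in the submitters' processing notes, with no role stated. Neither genome build nor annotation is given in the sources used here. The table deposited by the authors holds 1 signal value for each gene and library, a read count divided by a scaled library size, called CPM here. Its column sums of 889133 to 1097908 differ between libraries. Each column is made of whole multiples of 1 step, and dividing by the step gave whole reads (100% of values within 0.01 read), 21150912 to 30037731 for each library on the listed genes.

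Sequence names were matched to the WBcel235 annotation for 12731 genes and not for 163. That annotation gave symbols, chromosomes, coordinates and exon lengths. Of the 43 genes, 16 share exon bases with another gene, 13 with a protein-coding one, and no source used here says how reads on such bases were assigned. The overlap was longest for nuo-3 (783 bases) and cox-14 (519 bases).

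A filter of 1 CPM or more in 3 or more libraries kept 12830 genes for testing and removed 64. In R 4.3.3, limma 3.58.1 with a mean-variance trend was run on log2(CPM + 1), so changes of low genes are understated. The fit had 4 group means over all 12 libraries, two-sided tests and Benjamini-Hochberg adjustment over all genes tested, with a threshold of 0.05. Rose and fell mean called by that fit. The script was tested on simulated data. The design assumed plain CPM, and its test was kept for the scaled signal. Alternatives were a pseudocount of 0.5, no filter, a mean of at least 5 CPM, quantile normalization, array weights, the replicate block, only the groups compared, each library left out, and edgeR 4.0.16 and DESeq2 1.42.0 on whole reads.

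The replicate letters were taken to pair libraries of the 2 RNAi labels within an arrest length, because the deviations of same-lettered libraries from their group means correlated at 0.821, 0.596 and 0.593 after long arrest and at 0.695, 0.55 and 0.541 after short arrest. The correlations across arrest lengths ran from -0.0952 to 0.659, so letters were not taken to pair there. The planned block nevertheless has 1 effect of each letter over all 12 libraries, so a fit with letter effects within each arrest length was added after the data were seen, for the contrasts between RNAi labels. No 2 replicates of a group agreed within sampling noise. Genes given in full were the 6 with well known mutants, the paralog sets and the called genes. The genes and the lists were chosen with earlier results of these data known. Sets are described by counts and medians, with no test of a set.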

Additional observations from a re-analysis of the deposited data

How the results depend on the processing

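The median change of the 43 genes kept its direction under all alternatives that gave a value. In starved EV against control EV it was -0.0586 with quantile normalization. The number called lower there, 2, became 1 with quantile normalization, 11 with array weights, 0 with only the groups compared, 1 with edgeR and 8 with DESeq2. With a replicate block it was 30, beside 26.3% of all genes. Across arrest lengths, same-lettered libraries deviated together for A and C (correlations of 0.487 to 0.659) but not for B (0.0848 and -0.0952). Letters were not taken to pair libraries there. With each library left out it ran from 0 to 6. In starved daf-2 RNAi against starved EV, the 1 gene called higher became 0 with quantile normalization, array weights or only the groups compared, and 3 with the replicate block, and ran from 0 to 1 with each library left out. The 3 called lower became 5 with quantile normalization, 9 with the replicate block and 1 with only the groups compared. With array weights there were 2, of which ucr-2.1 and ucr-2.2 were no longer part and asg-2 was gained. The count ran from 0 to 4 with each library left out. In control daf-2 RNAi against control EV, the 0 called lower became 11 with array weights and 13 with the replicate block. A replicate block within each arrest length, chosen after seeing the data, gave 3 higher and 10 lower after long arrest and 20 lower after short arrest, and kept all 12 and all 13 calls of the shared block. Over all genes the shared block called 3037 higher and 3114 lower after long arrest, and 6150 of these calls were kept. After short arrest it called 229 higher and 516 lower, and 745 were kept. Shares over all genes are not given here for quantile normalization, array weights, only the groups compared or a library left out. The counts in those fits therefore cannot be set against the background. The cause of the differences between fits was not tested.

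All 6 genes called without the block were also called with it. So were all 2266 genes called without it in starved EV against control EV and all 2017 in starved daf-2 RNAi against starved EV. For the 16 genes given in full, 1612 values held their side of the threshold, 52 lost a call, 48 gained one and 0 reversed. Most of the 1612 were uncalled in the main fit too, and the 52 losses all fell on the 6 called results. After long arrest on EV, atp-4 kept its call in 8 of 21 alternatives and ucr-2.3 in 12 of 21. In starved daf-2 RNAi against starved EV, sdha-2 kept its call in 11 of 22, ucr-2.1 in 12, ucr-2.2 in 17 and gas-1 in 18. Of the uncalled values, 90 turned sign. The gene with the fewest reads, cox-17, had a median of 296.5 reads over the libraries. With 3 replicates each, the groups' spread between libraries limits how small a change can be called.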
